A study of Rattus norvegicus with 11 samples.

Results

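The genes whose expression set both selected rat strains apart from Wistar rats were examined in the corpora quadrigemina, the midbrain region that holds the inferior and superior colliculi. A gene was taken where all 7 rats of the KM and “0” strains lay above the highest or below the lowest of the 4 Wistar (W) rats. Of 13694 genes tested, 256 met this rule, that is 1.87%, with 137 genes (1%) higher and 119 genes (0.869%) lower in the selected strains. A symbol was at hand for 198 of the 256 genes.

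All animals were male rats 4 months old, and each was sequenced as its own library. The 3 KM rats came from an inbred strain bred from Wistar stock for seizures in response to sound, which the labels call prone to audiogenic epilepsy. The 4 “0” rats came from a strain, labelled less prone, that was bred for lack of such seizures from hybrids of KM and Wistar rats, with early backcrosses to KM. The 4 W rats were outbred Wistar rats, labelled wild type, and the labels name Wistar as the strain of all 11 rats, while animals that showed wild running were excluded from that group. All groups were exposed to sound 4 days before sacrifice, but only KM rats (once) and “0” rats (3 times) had also been tested at 3 months, so this earlier exposure and the strains' descent cannot be told apart from each other. Nothing in the labels ties rats to litters, dissection days or hours.

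The inferior colliculus relays sound from the brainstem to the thalamus, and it is known as the site where audiogenic seizures begin in rodents. KM and “0” rats share ancestors that the present W rats do not, and they differ in seizure phenotype. A difference from W that both strains hold is therefore one shared by rats that differ in this phenotype. The paper calls the “0” strain partially prone but states that the “0” rats it used did not respond to sound. Whether shared differences go with proneness was not tested.

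Between 10545964 and 15140180 reads per rat were assigned to genes, and 3 counts, the smallest amount taken as detectable, corresponded to 0.177 to 0.331 CPM (counts per unit of library size after TMM scaling, on the usual CPM scale). The 10 genes with most reads held 7.94% to 29.2% of a library, most in “0” rat 3. Choroid plexus markers summed to 8143 CPM in KM rat 3 and to 157 to 296 CPM in the other 10 rats. Only 1 of 17 collicular markers had a symbol at hand, at 0.0823 to 2.76 CPM in the 11 rats, so that the labelled tissue could not be checked, and lists for neurons, cerebellum, cortex and pineal gland had no symbol at hand.

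The 7 selected-strain rats differed from W by a median of 0.587 on the log2 scale in the 256 genes, against 0.142 over all genes tested. These sizes follow from the choice of genes and are a description. Most changes were small, since 195 genes differed by less than 2-fold and 61 by 2-fold or more. In the fit of all 3 groups, 248 of the 256 genes had an unadjusted p under 0.05, where 8.52% of all genes tested did (1167 genes, with 597 or 4.36% higher and 570 or 4.16% lower). At an adjusted p under 0.05 there were 28 of the 256 genes, 13 higher and 15 lower, against 0.234% of all genes tested (32 genes, 14 higher and 18 lower). The p of a member is not independent of its choice, because both use the same values.

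**Figure D1:**
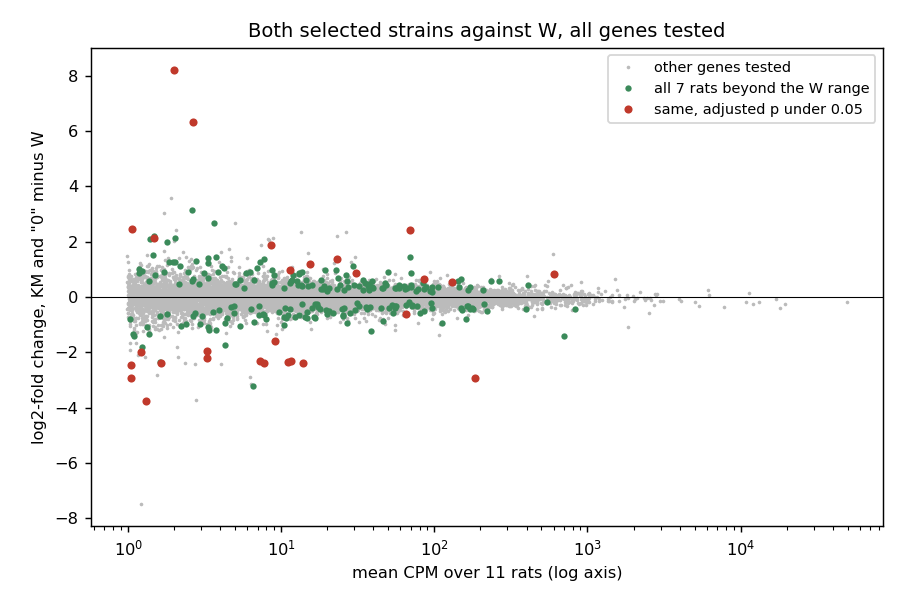
Log2-fold change of both selected strains against W (vertical axis, mean of KM and “0” minus W) by mean CPM over the 11 rats (horizontal log axis), 1 point per gene tested. Green points are genes in which all 7 selected-strain rats lie beyond the W range, and red points are the 28 of these with an adjusted p under 0.05, which reach 8.22 upwards and −3.76 downwards.

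Leaving out rats moved these counts. The number of genes without overlap lay between 284 (without KM rat 2) and 551 (without W rat 4), and it was 477 without “0” rat 3, 402 without W rat 2 and 449 without W rat 3, where fewer rats also leave fewer chances to overlap. The number of genes with an adjusted p under 0.05 lay between 11 (without KM rat 2) and 32, with 13 without W rat 1 and 18 without “0” rat 2, “0” rat 3 or W rat 2. Without both W rat 4 and “0” rat 3, a choice made after seeing the data, 1039 genes did not overlap and 21 had an adjusted p under 0.05.

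Of the 28 genes past the adjusted threshold, 25 carried a symbol, and they are described by role. Values are given rat by rat, in the order KM rats 1 to 3, “0” rats 1 to 4 and W rats 1 to 4. Log2-fold changes of both selected strains against W carry their SE, and adjusted p values come from edgeR's quasi-likelihood F-test (QLF test).

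**Figure D2:**
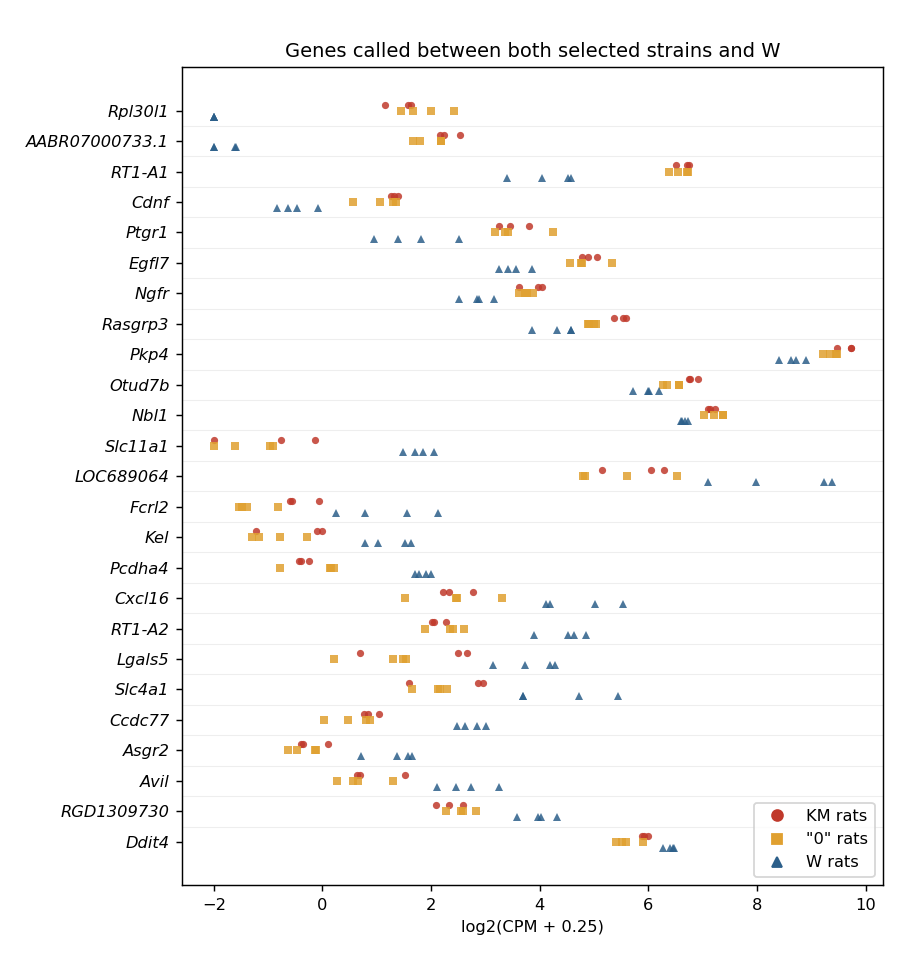
Level of the 25 named genes with an adjusted p under 0.05 in each of the 11 rats, as log2(CPM + 0.25), with red circles for KM, yellow squares for “0” and blue triangles for W rats. The upper 11 genes were higher and the lower 14 lower in both selected strains, and in no gene do the selected-strain and W points overlap, with Rpl30l1 at 0 counts in all 4 W rats.

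A pair of neighbouring genes for classical MHC class I heavy chains, which present peptides to cytotoxic T cells, changed in opposite directions. RT1-A1 stood at 90.6, 104 and 107 CPM in KM, 83.3, 92.6, 105 and 106 CPM in “0” and 22.8, 10.3, 23.5 and 16.2 CPM in W rats. RT1-A2 stood at 3.78, 3.91 and 4.61 CPM in KM, 5.06, 4.85, 5.84 and 3.45 CPM in “0” and 24.5, 22.8, 28.6 and 14.6 CPM in W rats. All 7 selected-strain rats were high in RT1-A1 and low in RT1-A2, and all 4 W rats were the reverse. RT1-A1 rose by 2.44 ± 0.21 on the log2 scale (adjusted p = 0.000402), and RT1-A2 changed by −2.35 ± 0.19 (adjusted p = 0.0003). Their summed level was 88.4 to 112 CPM in the selected strains and 30.8 to 52.2 CPM in W rats, so the sum did not overlap either. RT1-A1 and RT1-A2 are closely related paralogs, and the split of reads between them, in rats whose MHC haplotypes may differ from the reference, is uncertain.

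The RefSeq promoters of this pair, from 250 bases before to 50 after the annotated start on build GRCr8, are printed to show how alike the copies are. RT1-A1 lies at chr20:4906959-4907258 and RT1-A2 at chr20:4872621-4872920, both on the plus strand. Capitals mark GGGGATTCC, GTTTCACTT, and CCAAT in either direction, each searched on both strands.
RT1-A1: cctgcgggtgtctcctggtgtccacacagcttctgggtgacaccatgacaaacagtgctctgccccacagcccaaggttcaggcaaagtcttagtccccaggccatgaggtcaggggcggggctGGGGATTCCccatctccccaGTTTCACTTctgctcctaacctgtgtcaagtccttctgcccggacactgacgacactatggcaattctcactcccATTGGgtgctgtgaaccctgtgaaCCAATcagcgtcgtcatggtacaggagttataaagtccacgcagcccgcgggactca
RT1-A2: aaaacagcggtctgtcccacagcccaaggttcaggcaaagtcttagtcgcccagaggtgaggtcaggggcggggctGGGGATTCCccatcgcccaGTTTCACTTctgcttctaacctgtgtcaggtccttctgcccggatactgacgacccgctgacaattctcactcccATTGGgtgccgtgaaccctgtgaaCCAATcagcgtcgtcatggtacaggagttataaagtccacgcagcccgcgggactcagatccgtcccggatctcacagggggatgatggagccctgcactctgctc
Of 253 aligned columns, 235 were identical (92.9%), and the longest identical run was 71 bases. The first motif occurred in 0.281% of 33469 rat promoters, the second in 0.385% and CCAAT in 37.5%. Each promoter held 1 match of the first, 1 of the second and 2 of CCAAT, and no motif overlapped another.

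Other MHC and antigen presentation genes lay in both directions. Of 12 tested, 5 were higher and 3 lower at an unadjusted p under 0.05, where 46.3% of all genes with a symbol were (23.3% higher, 23% lower). Symbols were taken from genes that the study listed as differing, so this high share is the background for every list below. Of all genes with a symbol, 11.3% did not overlap (5.86% higher, 5.4% lower), which is likewise the background for the lists. RT1-M3-1, a nonclassical class I gene, was the third without overlap, at 14.2, 10.5 and 11.2 CPM in KM, 12.6, 12.5, 16.3 and 17.1 CPM in “0” and 8.67, 9.12, 9.31 and 7.34 CPM in W rats (log2-fold change 0.62 ± 0.15, adjusted p = 0.165).

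Copies of the ribosomal protein L30 gene, a component of the large ribosomal subunit, were also among the genes without overlap. Rpl30l1 had 274 counts over the 7 selected-strain rats (24 to 65 per rat) and 0 counts in all 4 W rats. Against a floor of 3 counts over the W group it was at least 49.4-fold higher in the selected strains (adjusted p = 0.00127). No W rat gave a read, and no selected-strain rat fell below 1.97 CPM.

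Rpl30 itself stood at 21.1, 32.3 and 26.1 CPM in KM, 37.1, 21.3, 31.4 and 24.1 CPM in “0” and 12.1, 20.8, 7.85 and 15.1 CPM in W rats. A further copy, LOC100362027, was chosen after its values were seen, so the sum below rests on that choice too. It stood at 17.4, 30.4 and 21.2 CPM in KM, 42, 19.6, 29 and 25.5 CPM in “0” and 68.1, 46.9, 45.8 and 78.3 CPM in W rats. Rpl30 was above and LOC100362027 below every W rat, by 0.98 ± 0.25 (adjusted p = 0.193) and −1.21 ± 0.23 (adjusted p = 0.0546), neither past the adjusted threshold. The 3 genes summed to 40.6 to 84.3 CPM in the selected strains and to 53.6 to 93.3 CPM in W rats, which overlapped. Reads of such copies can be assigned to one or another, so the single values are uncertain. Of 27 cytosolic ribosomal protein genes tested, 3 were higher and 5 lower at an unadjusted p under 0.05, and the 3 without overlap were Rpl30l1, Rpl30 and Rps4y2 (0.87).

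The RefSeq sequence at the start of Rpl30l1, at chr13:91813735-91814034 on the plus strand of GRCr8, is given for the gene that no W rat expressed detectably, with the 50 bases from the annotated start in capitals.
Rpl30l1: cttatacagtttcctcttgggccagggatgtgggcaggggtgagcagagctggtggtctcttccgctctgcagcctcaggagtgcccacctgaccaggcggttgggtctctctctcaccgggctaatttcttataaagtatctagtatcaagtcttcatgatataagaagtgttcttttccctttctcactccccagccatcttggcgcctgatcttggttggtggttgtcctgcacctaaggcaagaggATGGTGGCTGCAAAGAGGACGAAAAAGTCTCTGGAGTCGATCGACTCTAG

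**Figure D3:**
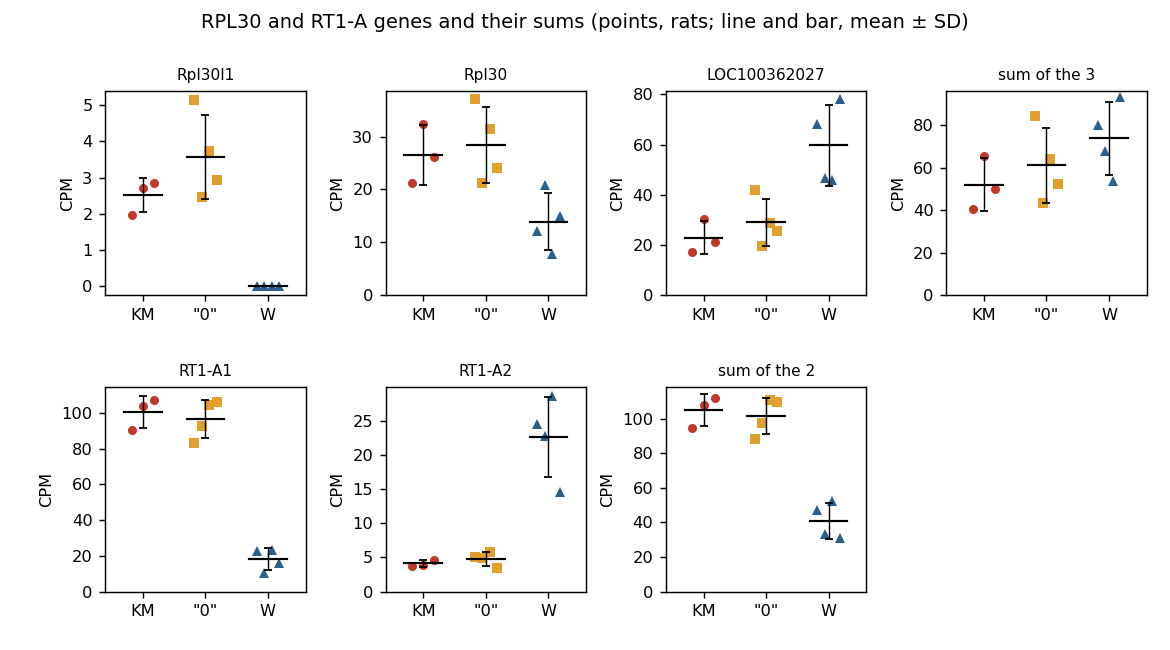
CPM (vertical axes, starting near 0) of 3 RPL30 genes and their sum (upper row) and of RT1-A1, RT1-A2 and their sum (lower row) in KM, “0” and W rats, with points for rats and a line and bar for the mean ± SD. Single copies separate the selected strains from W, the RPL30 sum overlaps at 40.6 to 84.3 against 53.6 to 93.3 CPM, and the RT1-A sum does not. LOC100362027 was chosen after its values were seen.

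AABR07000733.1, a transcript known only by a clone name, had 363 counts in the selected strains and 2 in W rats. The ratio of its CPM was 98.2 (adjusted p = 0.000114, QLF test). Its counting interval was 27.0 to 814, which rests on summed counts and leaves out the spread between rats. Each selected-strain rat had 34 to 72 counts and no W rat more than 1.

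Further genes that rose encode secreted or membrane signalling proteins. Cdnf, a neurotrophic factor of the endoplasmic reticulum, stood at 2.14, 2.38 and 2.25 CPM in KM, 2.29, 1.24, 2.2 and 1.82 CPM in “0” and 0.398, 0.307, 0.69 and 0.47 CPM in W rats, a change of 2.13 ± 0.30 (adjusted p = 0.0138). Egfl7, secreted by endothelial cells, stood at 33.2, 29.4 and 27 CPM in KM, 26.8, 23.2, 27.3 and 40.2 CPM in “0” and 11.6, 14.3, 10.4 and 9.22 CPM in W rats, a change of 1.38 ± 0.18 (adjusted p = 0.00698). Ngfr, the p75 neurotrophin receptor, stood at 15.4, 12.1 and 16.1 CPM in KM, 13.4, 13, 12 and 14.4 CPM in “0” and 6.92, 5.44, 8.71 and 7.15 CPM in W rats, a change of 0.97 ± 0.16 (adjusted p = 0.0266). The 7 selected-strain rats were above all W rats in each of the 3 genes, and the KM and “0” ranges overlapped. Nbl1, an antagonist of bone morphogenetic proteins, rose less, at 130.2 to 166 CPM against 96.7 to 105 CPM (0.55 ± 0.10, adjusted p = 0.0464).

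Ptgr1, which reduces prostaglandins and leukotrienes, stood at 10.7, 13.8 and 9.22 CPM in KM, 18.7, 8.84, 10.4 and 9.96 CPM in “0” and 2.39, 1.69, 3.28 and 5.46 CPM in W rats, a change of 1.87 ± 0.33 (adjusted p = 0.0468). Pkp4, an armadillo protein of cell junctions, stood at 848, 845 and 714 CPM in KM, 646, 714, 698 and 594 CPM in “0” and 421, 337, 478 and 396 CPM in W rats, a change of 0.84 ± 0.12 (adjusted p = 0.0138). Otud7b, a deubiquitinase, and Rasgrp3, an exchange factor that activates Ras and Rap proteins, are described below, since their KM minus “0” difference had an unadjusted p under 0.05. Of 11 MAPK and Ras regulators tested, 3 were higher and 3 lower at an unadjusted p under 0.05, and Rasgrp3 (higher) and Rras2 (lower, −0.44) did not overlap.

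Genes of red blood cells were lower in both selected strains. Slc4a1, the band 3 anion exchanger, stood at 7.49, 7.06 and 2.78 CPM in KM, 4.11, 4.66, 2.87 and 4.23 CPM in “0” and 26.2, 12.6, 12.7 and 43.2 CPM in W rats. Kel, the Kell membrane peptidase, stood at 0.741, 0.68 and 0.177 CPM in KM, 0.158, 0.57, 0.331 and 0.195 CPM in “0” and 2.63, 2.84, 1.47 and 1.79 CPM in W rats. LOC689064, named as a beta-globin, stood at 65.6, 78 and 35.1 CPM in KM, 91.8, 27.5, 28.3 and 48.2 CPM in “0” and 137, 602, 252 and 670.4 CPM in W rats. All 7 selected-strain rats were below all W rats in each, and W rat 4 was the highest in Slc4a1 and LOC689064 and W rat 2 in Kel.

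The changes were −2.31 ± 0.36 (Slc4a1, adjusted p = 0.0212), −2.45 ± 0.40 (Kel, adjusted p = 0.0282) and −2.94 ± 0.45 (LOC689064, adjusted p = 0.0193). Lgals5, a galectin of rat reticulocytes, stood at 6.09, 5.36 and 1.36 CPM in KM, 2.53, 2.66, 2.2 and 0.911 CPM in “0” and 19.3, 8.59, 12.9 and 18.1 CPM in W rats, with a change of −2.32 ± 0.38 (adjusted p = 0.0299). Only 5 of 11 erythrocyte markers had a symbol at hand, with 6 identifiers. Of the 6 erythrocyte identifiers tested, all 6 were lower at an unadjusted p under 0.05, where 23% of all genes with a symbol were. The adjusted threshold was passed by 2 of them, where 0.234% of all genes tested passed it. Of the 6, 4 did not overlap, where 5.4% of all genes with a symbol were lower without overlap. Ahsp, the chaperone of alpha-globin (−2.35 ± 0.42, adjusted p = 0.0513), and the Hba-a2 identifier ENSRNOG00000047321 (−1.40 ± 0.26, adjusted p = 0.0546) were the other 2 without overlap. The membrane genes Epb42 (−1.82 ± 0.35) and Rhd (−1.19 ± 0.21) were not on the list and were chosen after their values were seen, and they too lay below every W rat, with adjusted p values of 0.0597 and 0.0513.

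The 6 erythrocyte identifiers summed to 1120 to 2694 CPM in the selected strains and to 2529 to 6644 CPM in W rats, highest in W rat 4, so that the sums overlapped while single genes did not. Alas2, the erythroid enzyme that starts haem synthesis, and the other Hba-a2 identifier overlapped between the groups. The methods describe decapitation and mention no rinsing of the vessels, and the part of residual blood in these differences was not tested. In tissue samples of this kind, fewer cells of a type and less RNA per cell cannot be told apart.

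**Figure D4:**
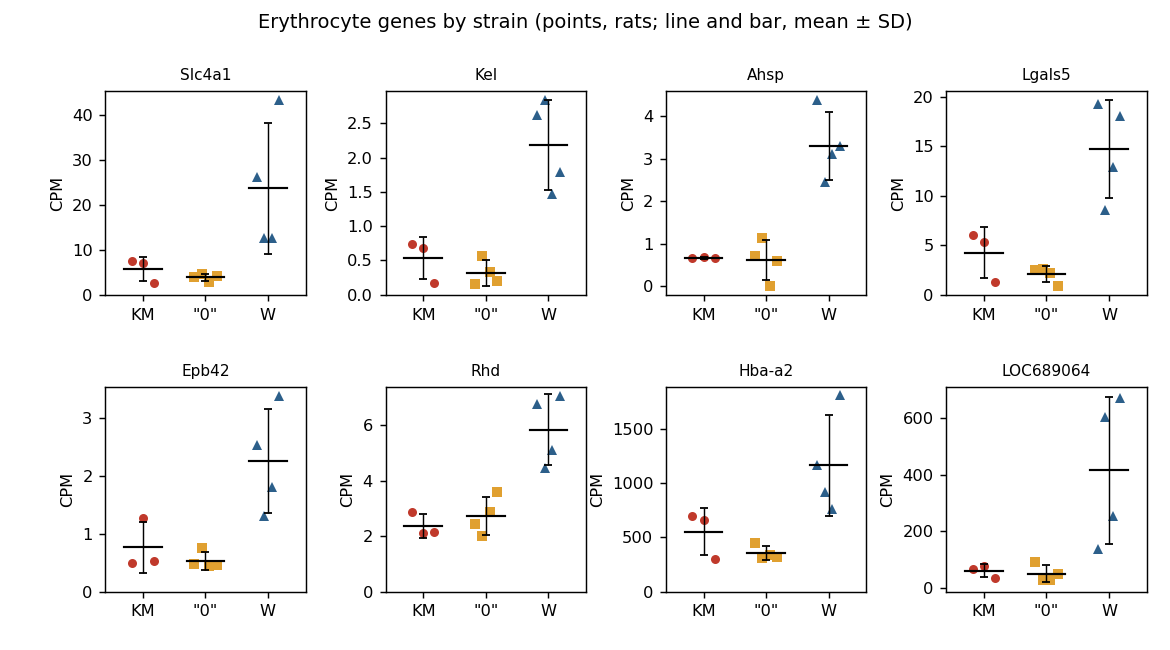
CPM of 8 erythrocyte genes (vertical axes) in KM, “0” and W rats, with points for rats and a line and bar for the mean ± SD, Hba-a2 being identifier ENSRNOG00000047321. In each panel the 7 selected-strain rats lie below the 4 W rats, as for Slc4a1 with at most 7.49 CPM against at least 12.6 CPM. This follows from the choice of genes that meet the rule, and Alas2 and the other Hba-a2 identifier, which overlapped, are not shown.

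Several of the lower genes are known from macrophages and other leukocytes, a grouping made after their values were seen. Slc11a1, the metal transporter of macrophage phagosomes, stood at 0.658, 0.34 and 0 CPM in KM, 0.079, 0.285, 0 and 0.26 CPM in “0” and 3.34, 2.99, 3.88 and 2.54 CPM in W rats. Fcrl2, an Fc receptor-like gene, stood at 0.411, 0.425 and 0.709 CPM in KM, 0.316, 0.095, 0.11 and 0.13 CPM in “0” and 4.14, 2.68, 1.47 and 0.941 CPM in W rats. Cxcl16, a chemokine of myeloid and endothelial cells, stood at 4.77, 4.42 and 6.56 CPM in KM, 5.22, 9.69, 5.29 and 2.6 CPM in “0” and 32.1, 18.1, 17.2 and 46 CPM in W rats. In KM rat 3 and “0” rat 3 Slc11a1 had no counts, whereas every W rat had more than 2 CPM. The changes were −3.76 ± 0.54 for Slc11a1 (adjusted p = 0.0138), −2.92 ± 0.44 for Fcrl2 (adjusted p = 0.0175) and −2.37 ± 0.34 for Cxcl16 (adjusted p = 0.0138). Asgr2, a subunit of the asialoglycoprotein receptor, was at 0.391 to 0.823 CPM in the selected strains and at 1.38 to 2.86 CPM in W rats (−1.99 ± 0.28, adjusted p = 0.0138). Other genes known from macrophages lay above every W rat, namely Cd14 (1.12 ± 0.24, adjusted p = 0.0897) and Gpnmb (0.85 ± 0.17, adjusted p = 0.069), so that the genes of these cells lay in both directions. Only 2 of 12 microglia and macrophage markers had a symbol at hand, and they too differed in direction, C1qc by −0.36 ± 0.13 (adjusted p = 0.444) and Tmem119 by 0.33 ± 0.15 (adjusted p = 0.586), both overlapping with W.

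Among the remaining lower genes, Pcdha4 belongs to the clustered protocadherins, adhesion proteins that give neurons their surface identity. Its identifier ENSRNOG00000047174 stood at 0.494, 0.51 and 0.591 CPM in KM, 0.869, 0.855, 0.331 and 0.911 CPM in “0” and 3.5, 2.99, 3.19 and 3.76 CPM in W rats, a change of −2.38 ± 0.25 (adjusted p = 0.00144). A second identifier of the same symbol, ENSRNOG00000050378, differed by −1.04 ± 0.27 without passing the adjusted threshold (adjusted p = 0.195). Of 6 protocadherin identifiers tested, 2 were higher and 3 lower at an unadjusted p under 0.05. Only 5 of 60 listed protocadherin symbols were at hand. Of the 6 identifiers, 4 did not overlap, where 11.3% of all genes with a symbol did not. Among these 4, both Pcdha4 identifiers and Pcdhga10 (−0.56) were lower and Pcdhgb6 (0.81) was higher. Protocadherin transcripts of a cluster share their last exons, and how reads there were counted is uncertain.

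Ccdc77, a coiled-coil gene, stood at 1.81, 1.45 and 1.54 CPM in KM, 1.58, 1.14, 0.772 and 1.5 CPM in “0” and 5.33, 7.82, 5.95 and 6.96 CPM in W rats, a change of −2.19 ± 0.21 (adjusted p = 0.00094). RGD1309730, a gene without an assigned function, stood at 4.03, 4.76 and 5.73 CPM in KM, 5.77, 4.56, 6.83 and 5.6 CPM in “0” and 16.1, 19.6, 15.4 and 11.7 CPM in W rats, a change of −1.58 ± 0.17 (adjusted p = 0.00199). Avil, an actin-binding protein of sensory neurons, stood at 2.63, 1.36 and 1.3 CPM in KM, 0.948, 1.24, 1.32 and 2.21 CPM in “0” and 6.37, 4.06, 9.23 and 5.27 CPM in W rats, a change of −1.96 ± 0.30 (adjusted p = 0.0201). In each of these genes the lowest W rat was above the highest selected-strain rat, and the KM and “0” ranges overlapped. Ddit4, an inhibitor of mTORC1 that is induced by stress, stood at 60.6, 63.4 and 58.6 CPM in KM, 59.5, 41.9, 45.7 and 47.6 CPM in “0” and 88.5, 86.9, 77.3 and 84.4 CPM in W rats, with a change of −0.63 ± 0.11 (adjusted p = 0.0328).

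The 3 genes past the adjusted threshold without a symbol were ENSRNOG00000011182 (2.45), ENSRNOG00000024799 (1.19) and ENSRNOG00000021084 (−2.39). Of the 25 named genes, 8 kept an adjusted p under 0.05 without each of the 11 rats in turn, namely Rpl30l1, AABR07000733.1, RT1-A1, Egfl7, Pcdha4, RT1-A2, Ccdc77 and RGD1309730. All of these but Egfl7 kept it under every alternative that tested them, and Egfl7 reached 0.0531 without both W rat 4 and “0” rat 3. The other 17 lost it without at least 1 rat, with a highest adjusted p of 0.0628 (Fcrl2) to 0.192 (Nbl1 and Ptgr1), and no alternative turned the sign of any of the 25. Fcrl2 and Kel entered only 9 and 8 of the 11 fits without 1 rat, those where their mean CPM was at least 1. Of the 28 genes, 21, 11 and 20 kept the call without KM rats 1, 2 and 3, then 27, 17, 16 and 17 without “0” rats 1 to 4, and 12, 17, 22 and 19 without W rats 1 to 4.

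Further groups of genes without overlap lay outside the adjusted calls. Only 5 of 11 endothelial and pericyte markers had a symbol at hand, so that the other markers of vessels could not be read. Of the 5 tested, 4 were higher at an unadjusted p under 0.05 (QLF test), where 23.3% of all genes with a symbol were. None passed the adjusted threshold. All 4 did not overlap, where 11.3% of all genes with a symbol did not (5.86% higher, 5.4% lower). Kcnj8, a potassium channel subunit of pericytes, stood at 10.4, 14.7 and 13.2 CPM in KM, 16.4, 14.8, 16.5 and 15.1 CPM in “0” and 9.31, 10.1, 9.74 and 8.66 CPM in W rats, a difference of 0.58 ± 0.13 (adjusted p = 0.104). Tek (0.46) and Flt1 (0.36), both receptors of endothelial cells, and Abcc9 (0.44), the partner subunit of Kcnj8, had adjusted p values of 0.13, 0.261 and 0.32. The 5 genes, Rgs5 included, summed to 219 to 273 CPM in the selected strains and to 159 to 203 CPM in W rats.

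Immediate early genes, which neurons switch on after activity, were mostly lower in the mean of both strains, with “0” rats below KM rats in their sum. Of 13 tested, 9 were lower and 1 (Gadd45b) higher at an unadjusted p under 0.05, and none passed the adjusted threshold. Per1, which is also a gene of the circadian clock, stood at 49.7, 35.3 and 36.9 CPM in KM, 34.6, 35.5, 28.3 and 26 CPM in “0” and 52.7, 64.6, 54.2 and 89.3 CPM in W rats, a difference of −0.87 ± 0.17 (adjusted p = 0.0595). Klf2 (−0.76), Ccn2 (−0.72) and Klf4 (−0.65) were likewise below every W rat, with adjusted p values of 0.104, 0.0694 and 0.104. Fos (−0.59), Egr1 (−1.01) and Sgk1 (−0.96) did not meet the rule. The 13 genes summed to 214 to 337 CPM in KM, to 172 to 207 CPM in “0” and to 298 to 444 CPM in W rats, so that KM rats overlapped with W and “0” rats did not. Fos differed from W by −0.21 in KM and −0.97 in “0” rats, Dusp1 by −0.29 and −0.77, Nr4a1 by 0.28 and −1.41 and Nr4a2 by 0.16 and −1.73, in comparisons that share the W rats and with genes chosen after their values were seen. Egr1 was at −1.09 in KM and −0.93 in “0” rats.

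Transporters lay in both directions. Of 41 solute carriers tested, 8 were higher and 11 lower at an unadjusted p under 0.05, and 2 in each direction did not overlap. Slc12a2, the chloride importer NKCC1 that helps set the effect of GABA on a cell, stood at 247, 297 and 357 CPM in KM, 273, 365, 289 and 267 CPM in “0” and 229, 157, 209 and 198 CPM in W rats, a difference of 0.59 ± 0.15 (adjusted p = 0.157). KM rat 3, the library with the choroid plexus signal, was the highest KM rat and “0” rat 2 the highest of all rats, and without KM rat 3 the difference was 0.53 (adjusted p = 0.277). Slc15a3, a lysosomal peptide and histidine transporter, was the other one higher (0.90, adjusted p = 0.0897), and the 2 lower were Slc11a1 and Slc4a1. Slc12a2 was the single gene without overlap among 5 GABA and glycine genes tested.

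In several lists few or no members lay beyond the W range. Of 23 interferon response genes tested, 5 were higher and 4 lower at an unadjusted p under 0.05, and Trim25 (0.47) alone did not overlap. Ifit1, named after its values were seen, missed the rule through 1 rat. It had at most 0.0591 CPM in the selected strains and 2.86, 3.83, 6.64 and 0 CPM in W rats. Of 2 oligodendrocyte precursor markers tested, Gpr17, a receptor of committed precursors, did not overlap and was lower (−0.66), whereas Bcas1 overlapped, with a difference of 0.59 (adjusted p = 0.36). Zfp771 was the single gene without overlap among 26 zinc finger genes (−0.36), as was Cox7a2l2 among 10 subunits of oxidative phosphorylation (−0.64), and Gpr17, Zfp771 and Cox7a2l2 had adjusted p values of 0.26, 0.238 and 0.38. None of the members of the lists for voltage-gated channels (9 tested), glutamate receptors (4 tested), DNA repair (6 tested), glutathione and conjugation (7 tested), astrocytes (5 tested) or oligodendrocytes (3 tested) lay beyond the W range in all 7 rats.

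The test of KM minus “0” in these genes was not used to choose them, but the rule limits this difference. A gene could not enter where KM and “0” lay on different sides of W, or where either strain overlapped with W. The shares and sizes that follow are therefore a description. Of the 256 genes, 11 had an unadjusted p under 0.05 for KM minus “0”, that is 4.30%, where 4.89% of all genes tested did, and none had an adjusted p under 0.05, where 0.0292% of all genes did (QLF test). The size of this difference had a median of 0.127 on the log2 scale in the 256 genes and of 0.162 over all genes. Against W, the median size was 0.584 for KM and 0.610 for “0”. These 2 comparisons share the W rats. KM was farther from W in 123 genes and “0” in 133.

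Rasgrp3 was highest in KM, at 47.8, 46 and 41.1 CPM in KM, 29.8, 32.7, 29.3 and 31.6 CPM in “0” and 23.7, 14.3, 23.5 and 19.6 CPM in W rats, so that the KM, “0” and W ranges were separate. It rose by 0.88 ± 0.14 in both selected strains against W (adjusted p = 0.0282), and KM minus “0” was 0.54 ± 0.17 (adjusted p = 0.804). Otud7b followed the same order, at 120.3, 108 and 108 CPM in KM, 76.7, 95, 81.2 and 94.2 CPM in “0” and 63.8, 52.5, 72.6 and 64.2 CPM in W rats, with changes of 0.64 ± 0.11 against W (adjusted p = 0.0464) and 0.37 ± 0.13 for KM minus “0” (adjusted p = 0.934). Among the 11 genes with an unadjusted p under 0.05 for KM minus “0”, the largest differences were in Fcrl2 (1.60 ± 0.67), Jhy (−0.99 ± 0.30), Tent5c (0.96 ± 0.31), Pnlip (−0.57 ± 0.19) and Fam83d (0.56 ± 0.23), none past the adjusted threshold. The Fcrl2 value lay near the floor of 3 counts, with 5, 5 and 12 counts in KM and 4, 1, 1 and 2 in “0” rats. Jhy, a gene of motile cilia, stood at 7.32, 5.7 and 4.91 CPM in KM, 8.46, 12.3, 18.6 and 8.33 CPM in “0” and 3.34, 3.45, 4.48 and 2.73 CPM in W rats, with every “0” rat above every KM rat.

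**Figure D5:**
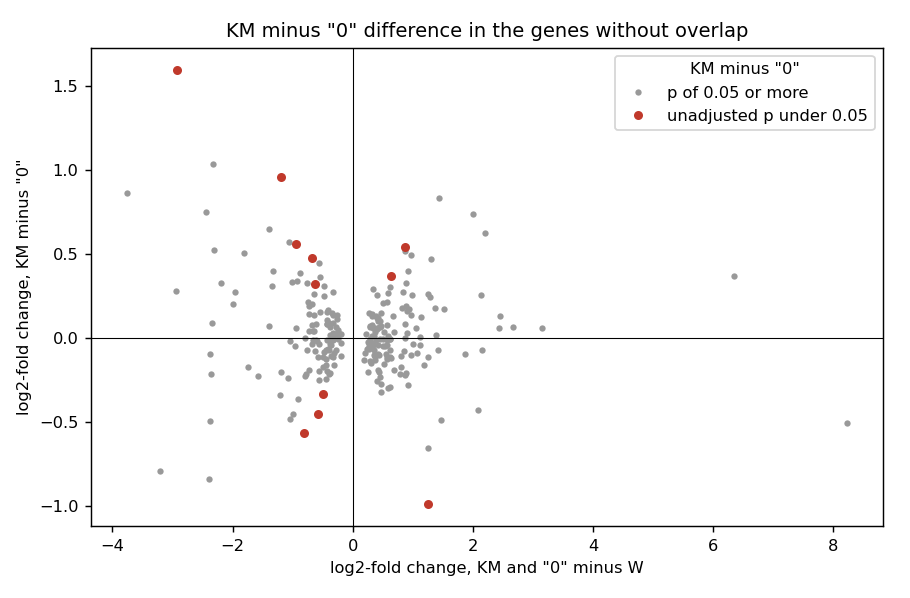
Log2-fold change of KM minus “0” (vertical axis) by that of both selected strains against W (horizontal axis) for the 256 genes, 1 point per gene, with the 11 genes at an unadjusted p under 0.05 for KM minus “0” in red. Most points lie near 0 on the vertical axis, where the median size is 0.127, on both sides of W.

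In 358 further genes, or 2.61% of all genes tested, all 7 rats lay outside the W range, but not all on the same side. The share that met the rule was 1.87%. In only 3 of these did all KM rats lie on one side and all “0” rats on the other, namely Tmem44, Eef2kmt and Giot1. Tmem44 stood at 15.9, 12.6 and 12.5 CPM in KM, 28.1, 29.7, 32.2 and 27.7 CPM in “0” and 17.1, 20.2, 18.5 and 18.8 CPM in W rats, lower than W in KM and higher in “0” rats, with KM minus “0” at −1.11 ± 0.14 (adjusted p = 0.0172). In Eef2kmt and Giot1, KM rats lay above and “0” rats below W, and KM minus “0” was 1.04 ± 0.26 and 0.95 ± 0.27, with adjusted p values of 0.528 and 0.716.

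Of the 32 genes with an adjusted p under 0.05 against W (QLF test), 4 did not meet the rule, and they are named after their values were seen. RGD1359290 stood at 10.5, 10.03 and 5.91 CPM in KM, 0.553, 0, 0.331 and 0 CPM in “0” and 12.1, 13.5, 6.47 and 9.6 CPM in W rats, and AABR07053166.1 at 3.95, 3.06 and 0.709 CPM in KM, 0.237, 0, 0 and 0 CPM in “0” and 5.89, 7.97, 3.88 and 4.89 CPM in W rats. Both were lowest in “0” rats while the KM and W ranges overlapped. RGD1562420 stood at 16.9, 27.5 and 28.4 CPM in KM, 0.948, 0.95, 1.54 and 0.325 CPM in “0” and 0.955, 1.46, 1.38 and 1.22 CPM in W rats and was high in KM rats alone. In Tnfaip6, a hyaluronan-binding protein, W rat 4 lay among the selected strains at 1.04 CPM, whereas the other W rats had 6.64 to 7.64 CPM. An adjusted p for the mean of both strains thus did not require that both had moved.

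The rule's limit was sharp for some genes. Just inside it were Fmnl2, with the lowest selected-strain rat at 43.5 CPM next to the highest W rat at 43.5 CPM, and Tgm2, at 22.1 and 22.1 CPM. Just outside were Ahcyl2, where the lowest selected-strain rat had 95.68 and the highest W rat 95.73 CPM, and Lap3, at 106.1 and 106.2 CPM.

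Neighbours in the genome were looked for among the 189 of the 198 named genes that RefSeq places on GRCr8. There were 6 pairs of adjacent protein-coding genes, with 12 genes or 6.35%. Over all tested genes with a symbol that RefSeq places, 316 of 1692 or 18.7% lay in such pairs. A larger set holds a larger share of adjacent genes by its size alone, so 6.35% and 18.7% cannot be compared. Kcnj8 and Abcc9, and Me1 (0.37) and Prss35 (1.05), were both higher. Vamp2 (−0.44) and Per1, and Klf2 and Ap1m1 (−0.32), were both lower. RT1-A2 and RT1-A1, and Ccdc77 and Kdm5a (0.29), lay in different directions. Of these, only RT1-A1, RT1-A2 and Ccdc77 passed the adjusted threshold.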

How the data were processed

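Poly(A) RNA from the inferior and superior colliculi was sequenced by the authors with a directional kit as 75-bp single-end reads. According to their methods and processing notes, reads were trimmed with Trimmomatic, mapped to Rnor_6.0 with STAR and counted with HTSeq, whose strand setting is not given in the sources used here. The authors deposited raw counts per gene for each rat, without normalization. Titles gave strain and rat number.

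Counts of 32883 genes were analysed with R 4.3.3 and edgeR 4.0.16. The 13694 genes whose CPM averaged 1 or more over the 11 rats entered 1 fit of 3 groups with TMM factors, and the mean of KM and “0” minus W was tested with the original quasi-likelihood F-test, with Benjamini-Hochberg adjustment over all genes tested. KM minus “0” came from the same fit. Overlap was judged on log2 CPM with a prior count of 2. The procedure was checked on simulated data. Replicate pairs differed by more than sampling noise (chi-square per degree of freedom 20.1 to 229). The p values measure the spread between these rats.

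Symbols were taken from the study's supplementary list of differing genes, which names 1763 identifiers. Other identifiers have no name here, so counts in lists cover named genes alone. Genes, lists and members were chosen with earlier results of these data known. The text names up to 15 called genes in each direction, up to 4 genes without overlap per list, the 5 largest KM minus “0” differences at an unadjusted p under 0.05, 2 genes on each side of the limit, genes on different sides and adjacent pairs, and says where a gene was chosen after its values were seen. Alternatives were other scalings, filters and tests (DESeq2 1.42.0), a replicate block and leaving out rats. Promoters and gene order came from RefSeq (GRCr8), with a promoter for 162 of the 198 named genes.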

Additional observations from a re-analysis of the deposited data

Results flagged for a closer look

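In 188 groups of 4 rats, 13 held a rat whose gap to the nearest other rat, over the group's range of log2(CPM + 0.25), exceeded Dixon's critical ratio at the 95% level, where chance alone flags 5%. Among W rats, W rat 4 stood apart in Ciart (21.6 CPM), Fam83d (4.99), the Pcdha4 identifier ENSRNOG00000050378 (4.89) and Tnfaip6 (1.04). W rat 1 stood apart in Rras2 (17.0 CPM), Tent5c (7.08) and Zfp771 (43.1), and W rat 3 in Kdm5a (46.4). Among “0” rats, the rats that stood apart were “0” rat 1 in AABR07053166.1 (0.237 CPM), “0” rat 2 in Epb42 (0.760) and Pcdhga10 (8.17), and “0” rat 3 in Gpnmb (19.0) and the Pcdha4 identifier ENSRNOG00000047174 (0.331).

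KM and “0” themselves differed at an adjusted p under 0.05 (QLF test) in 3 of the genes named, which shows that their differences from W were unequal there. KM minus “0” was 5.31 ± 0.64 in RGD1359290 (adjusted p = 0.0172), 4.74 ± 0.37 in RGD1562420 (adjusted p = 0.00037) and −1.11 ± 0.14 in Tmem44 (adjusted p = 0.0172). None of these belonged to the 256 genes without overlap.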

How the results depend on the processing

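The count of 32 genes with an adjusted p under 0.05 became 182 with DESeq2's Wald test, 56 with filterByExpr, 59 with no filter and 15 with at least 10 counts in every rat, and the 28 of them without overlap became 127, 50, 50 and 15. With the replicate block, that is the replicate number as a block, they became 18 and 15. Deviations of same-numbered rats of different strains correlated across genes at −0.579 to 0.513 (mean 0.0249). Those of rats with other numbers correlated at −0.633 to 0.721 (mean −0.0101). The numbers thus did not mark pairs that stood out, and whether rats share a batch of another kind was not tested. DESeq2's size factors, library totals alone, the newer quasi-likelihood form, pooling both strains, weighting by rats and a prior count of 0.5 kept each count within 1.5 times. The causes of these changes were not tested. With library totals alone, 151 of the 256 genes remained without overlap.

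Leaving out each rat gave 809 to 1356 genes at an unadjusted p under 0.05, 11 to 32 at an adjusted p, 284 to 551 without overlap, 11 to 30 with both, and 9 to 28 of the genes without overlap with a KM minus “0” difference. The last was 28 without W rat 3 and 17 without “0” rat 4 or W rat 4. Without both W rat 4 and “0” rat 3 there were 1039 genes without overlap (245 of the 256 among them), 21 with an adjusted p and 26 with a KM minus “0” difference, against 256, 32 and 11. The log2-fold change of Eef2kmt (−0.05) lay between −0.13 and 0.018 without 1 rat, above 0 without KM rat 1 and, at 0.0034, without “0” rat 2, and no other of the 94 named genes turned its sign. At this depth genes under 1 CPM were not examined.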

Other observations

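The genes below lay beyond the W range in all 7 selected-strain rats, were chosen after their values were seen and did not reach an adjusted p under 0.05 in the QLF test, so they are given as values. Genes of the synapse were among the lower ones. Vamp2, the synaptobrevin of synaptic vesicles, stood at 725, 665 and 673 CPM in KM, 847, 783, 768 and 675 CPM in “0” and 1013, 1037, 895 and 996 CPM in W rats (adjusted p = 0.106). Dlg4, the scaffold PSD-95, was at 314 to 419 CPM against 423 to 498 CPM (−0.43, adjusted p = 0.19), and Nlgn3, an adhesion protein of synapses, at 74.6 to 99 CPM against 106 to 122 CPM (−0.41, adjusted p = 0.167). Syn2, a protein of synaptic vesicles (−0.33), and Rab3b, a vesicle GTPase (−0.68), had adjusted p values of 0.331 and 0.167. The clock genes Dbp (−0.50 ± 0.12, adjusted p = 0.13) and Ciart (−0.66 ± 0.24, adjusted p = 0.444) were lower as Per1 was, and the hour of sacrifice is not in the labels.

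Several receptors and ligands were higher. Cd14, the co-receptor for lipopolysaccharide, stood at 3.54, 4.59 and 6.92 CPM in KM, 5.45, 3.9, 6.17 and 5.27 CPM in “0” and 1.99, 2.07, 2.85 and 2.54 CPM in W rats (adjusted p = 0.0897), whereas Cmklr1, the chemerin receptor, was lower (−0.99, adjusted p = 0.0946). Tgfa, a ligand of the EGF receptor, stood at 72.7, 62.4 and 67.6 CPM in KM, 44.9, 51.2, 64.7 and 54.6 CPM in “0” and 35.1, 26.1, 43.5 and 25.1 CPM in W rats (adjusted p = 0.0546). Cxcl12 (0.52), Unc5b (0.58) and Ptpn11 (0.42), which act in chemotaxis, axon guidance and receptor signalling, had adjusted p values of 0.11, 0.156 and 0.119. Oca2, a melanosome transporter, stood at 2.47, 2.3 and 3.43 CPM in KM, 2.92, 2.28, 3.97 and 2.41 CPM in “0” and 0.477, 0.46, 1.47 and 0.0941 CPM in W rats (adjusted p = 0.103), and Fam111a, a serine peptidase, at 4.28, 4.76 and 6.92 CPM in KM, 3.95, 6.65, 5.51 and 4.36 CPM in “0” and 0.159, 0.153, 2.41 and 0.565 CPM in W rats (adjusted p = 0.104). In Oca2 and Fam111a, W rat 3 was the highest of the W rats and still below every selected-strain rat.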
